A study of Mus musculus with 3 samples.

Results

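Mpo, Elane, Prtn3 and Ctsg encode the enzymes packed into the azurophil granules of neutrophils, and their transcripts were followed across the cells of the mouse meninges. They were taken as the rows of the count matrix with these 4 symbols, 4 of 27998 genes, and each symbol stood on 1 row. They were read in barcodes with at least 500 unique molecular identifiers (UMIs, the tags that count single transcripts), a number of genes within the study's limits and a mitochondrial share under 8.3%. This left 7057 cells, in which the 4 genes held 21772 of 23833529 UMIs. The study sequenced meningeal cells in 3 libraries on 1 chip by droplet 3' RNA-seq, each library from a pool of 4 male C57BL/6J mice aged 10 to 12 weeks. The libraries labelled HC replicate 1 and HC replicate 2 came from unstressed mice kept in the home cage. The library labelled CSD replicate 1 came from mice that were classed as stress-susceptible after 14 days of chronic social defeat. Sorting kept intact single cells with a nucleus, by exclusion of DAPI and uptake of DRAQ5, and skull pieces were kept out of the dish to limit cells of the skull marrow. The labels name no transgene or drug in any group, and no library came from a single animal.

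Azurophil granules, also called primary granules, are the first granules that a neutrophil precursor fills, and their proteins are made in the marrow at the promyelocyte stage. Later stages switch these genes off and keep the stored proteins, while transcripts of the secondary and tertiary granules follow. Mpo is the heme peroxidase that makes hypochlorous acid, and Elane (neutrophil elastase), Prtn3 (proteinase 3) and Ctsg (cathepsin G) are serine proteases that are activated by Ctsc and held in check by serpins.

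The 4 genes lie at 3 loci (mm10, GENCODE annotation). Prtn3 (ENSMUSG00000057729) spans chr10:79874476-79883174 and Elane (ENSMUSG00000020125) spans chr10:79886247-79888215, both on the plus strand with up to 5 exons and their facing ends 3073 bases apart. Mpo (ENSMUSG00000009350) spans chr11:87793581-87804413 on the plus strand with up to 14 exons, and Ctsg (ENSMUSG00000040314) spans chr14:56099881-56102574 on the minus strand with up to 5 exons. The neighbours of the members on the genome had a wide range of totals. Cfd, a serine protease gene 2638 bases from Elane, had 1 UMI in all cells, and Lpo, a peroxidase gene 2015 bases from Mpo, had 0. Mcpt8, a basophil protease gene 14608 bases from Ctsg, had 6600 and stood at 1868 CPM (counts per 1000000 UMIs) in the 127 cells with at least 20 UMIs of the 4 genes and at 147 CPM in the others. A pair of genes overlaps members on the opposite strand, and the sources used here do not give the strand setting of the counting. Gm11505 within Mpo had 1 UMI, and Plppr3, which overlaps Prtn3, had 44 and stood at 12.3 CPM in those 127 cells against 0.998 CPM in the others.

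The 250 bases before the start of each gene are shown because the 4 transcripts were high in the same few cells. They were read from RefSeq (GRCm38.p6), where all 4 symbols matched, at chr11:87793534-87793783 for Mpo, chr10:79886062-79886311 for Elane, chr10:79879417-79879666 for Prtn3 and chr14:56102575-56102824, on the minus strand, for Ctsg. Capitals mark motif letters that were searched on both strands. AGGAAGT stands for the ETS family, to which Spi1 of myeloid cells belongs. CAACGG stands for the MYB family of progenitor factors. TATAAG stands for a TATA box near the start. TGTGGT stands for the RUNX family, and its match is printed as its reverse complement in Ctsg.
Mpo: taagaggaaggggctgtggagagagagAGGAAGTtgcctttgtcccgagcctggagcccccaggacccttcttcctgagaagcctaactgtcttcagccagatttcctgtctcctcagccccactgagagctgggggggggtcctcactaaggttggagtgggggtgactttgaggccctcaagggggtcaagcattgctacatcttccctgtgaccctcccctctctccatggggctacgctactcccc
Elane: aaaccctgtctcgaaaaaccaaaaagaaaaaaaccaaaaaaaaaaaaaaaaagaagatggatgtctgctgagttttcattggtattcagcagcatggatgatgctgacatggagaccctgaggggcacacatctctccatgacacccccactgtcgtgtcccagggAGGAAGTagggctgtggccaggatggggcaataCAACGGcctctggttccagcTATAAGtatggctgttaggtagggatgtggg
Prtn3: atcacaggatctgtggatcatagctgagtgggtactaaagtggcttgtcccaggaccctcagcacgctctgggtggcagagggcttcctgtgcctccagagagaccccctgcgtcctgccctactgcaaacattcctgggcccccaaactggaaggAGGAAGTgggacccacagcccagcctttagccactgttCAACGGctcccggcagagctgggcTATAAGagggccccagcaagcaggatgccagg
Ctsg: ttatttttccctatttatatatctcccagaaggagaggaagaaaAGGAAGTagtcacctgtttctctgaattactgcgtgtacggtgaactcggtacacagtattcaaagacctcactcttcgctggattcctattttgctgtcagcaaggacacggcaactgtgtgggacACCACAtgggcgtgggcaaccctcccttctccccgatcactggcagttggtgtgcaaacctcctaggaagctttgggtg
The ETS letters stood in all 4 windows and in 7.69% of the windows of the same length before 32851 genes. The neighbours Elane and Prtn3 also shared the MYB letters, at -51 and -56 from the start, and the TATA letters, at -31 and -32. The MYB letters were present in 4.05% of all windows and the TATA letters in 6.65%. Ctsg held the RUNX letters, found in 14.0% of windows, on the opposite strand at -79. TTGCNNAA, letters of the C/EBP family found in 9.56% of windows, was in no member's window. The ETS, MYB and TATA letters were picked after the sequences had been read, so the matches describe these windows and test nothing. The GENCODE spans of Mpo, Elane and Prtn3 begin upstream of the RefSeq start, so all or part of these windows lies inside the GENCODE spans.

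The libraries held 2599, 1702 and 2756 cells (both HC libraries by number and then CSD, the order of every set of 3 values), with 8814690 to 10206236 UMIs per library and medians of 2212 to 2503 UMIs per cell. HC replicate 2 stood apart, since 24.1% of its UMIs lay in barcodes of at most 100 UMIs, against 7.87% and 5.48% in the others. The libraries shared 3 to 8 cell barcodes in pairs, where 6.00 to 9.72 would be shared by unrelated draws. Clusters of border macrophage-like and fibroblast-like cells of the meninges were present, beside 194 olfactory sensory neuron-like cells and 62 erythroid-like cells. Scrublet marked 50 and 16 cells of the HC libraries as doublets by its automatic threshold. That threshold marked 0.109% of the CSD cells, so the 103 marked there are a top share of scores and the counts are not alike. Marked cells were kept.

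The transcripts were also found in barcodes without a cell, as free RNA, in every library. In barcodes of at most 100 UMIs, Elane made up 428, 96.3 and 381 CPM, and Mpo 224, 44.6 and 102 CPM. T- and NK-like cells, lymphocytes that do not make azurophil granules, held Elane at 150, 29.0 and 99.1 CPM and Mpo at 58.6, 12.1 and 17.1 CPM. HC replicate 2 was lowest and HC replicate 1 highest in each of these. Levels in T- and NK-like cells of the same library therefore served as the background for all other cells.

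Cells were grouped without using the 4 genes or their granule companions, which gave 25 clusters, and 22 clusters were named from marker genes. With subcluster 20b, named at a later step, the names made 18 cell types. Cluster 20, with 282 cells, had Prtn3, Ctsg, Mpo and Elane as its first 4 genes by fold although they took no part in the grouping. It also held Ass1, Car1 and the division genes Aurkb, Hist1h1b and Cks1b among its first 10. It stayed unnamed because none of these 10 genes was a marker of a cell type. Its cells were deep, with medians of 10579, 7625 and 9961 UMIs. Cluster 20 held 58.8%, 67.1% and 56.5% of all Mpo UMIs, 51.1%, 74.7% and 45.7% of Elane, 60.4%, 71.7% and 61.0% of Prtn3 and 61.7%, 63.3% and 60.2% of Ctsg. Its share of the cells was 3.23%, 4.41% and 4.46%, so each of the 4 transcripts was concentrated there in all 3 libraries. These shares are sums over few cells, and in them more cells of a kind and more RNA per cell cannot be told apart.

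Cluster 20 was divided into 5 subclusters, and the preneutrophil-like cluster 5 also into 5, after it was seen that these clusters held the members. Subcluster 20b (67 cells) had Car1, Prg2, Cdk6, Cd34, Prg3 and Myb among its 10 leading genes. It was the only one of cluster 20 to take a name, myeloid progenitor-like. Its marker score was 4.23 for that type and, next, 1.81 for eosinophils, of which Prg2 is a listed marker. Subcluster 20e (29 cells) was led by Mpo, Ctsk, Ctsg, Elane, Prtn3, Ms4a3 and Prss57. Subcluster 20c (65 cells) was led by Prtn3, Ctsg, Ass1 and Elane, and subcluster 20a (88 cells) by Racgap1, Fn1 and the monocyte gene F13a1. Both scored highest on monocyte markers (1.70 in 20c and 2.68 in 20a) and next on preneutrophil markers (0.75 and 1.41). Too few of these markers were among their leading genes for a name. Subcluster 20d (33 cells) was led by Irf8 and Cox6a2. Within cluster 5, subcluster 5c (35 cells) was led by Elane, Fcnb, Ms4a3, Prtn3 and Mpo, and the other 4 subclusters by secondary granule and division genes such as Camp, Chil3 and Spc25. Since subclusters were formed from the same cells, their levels are given as a description with no test.

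**Figure D1:**
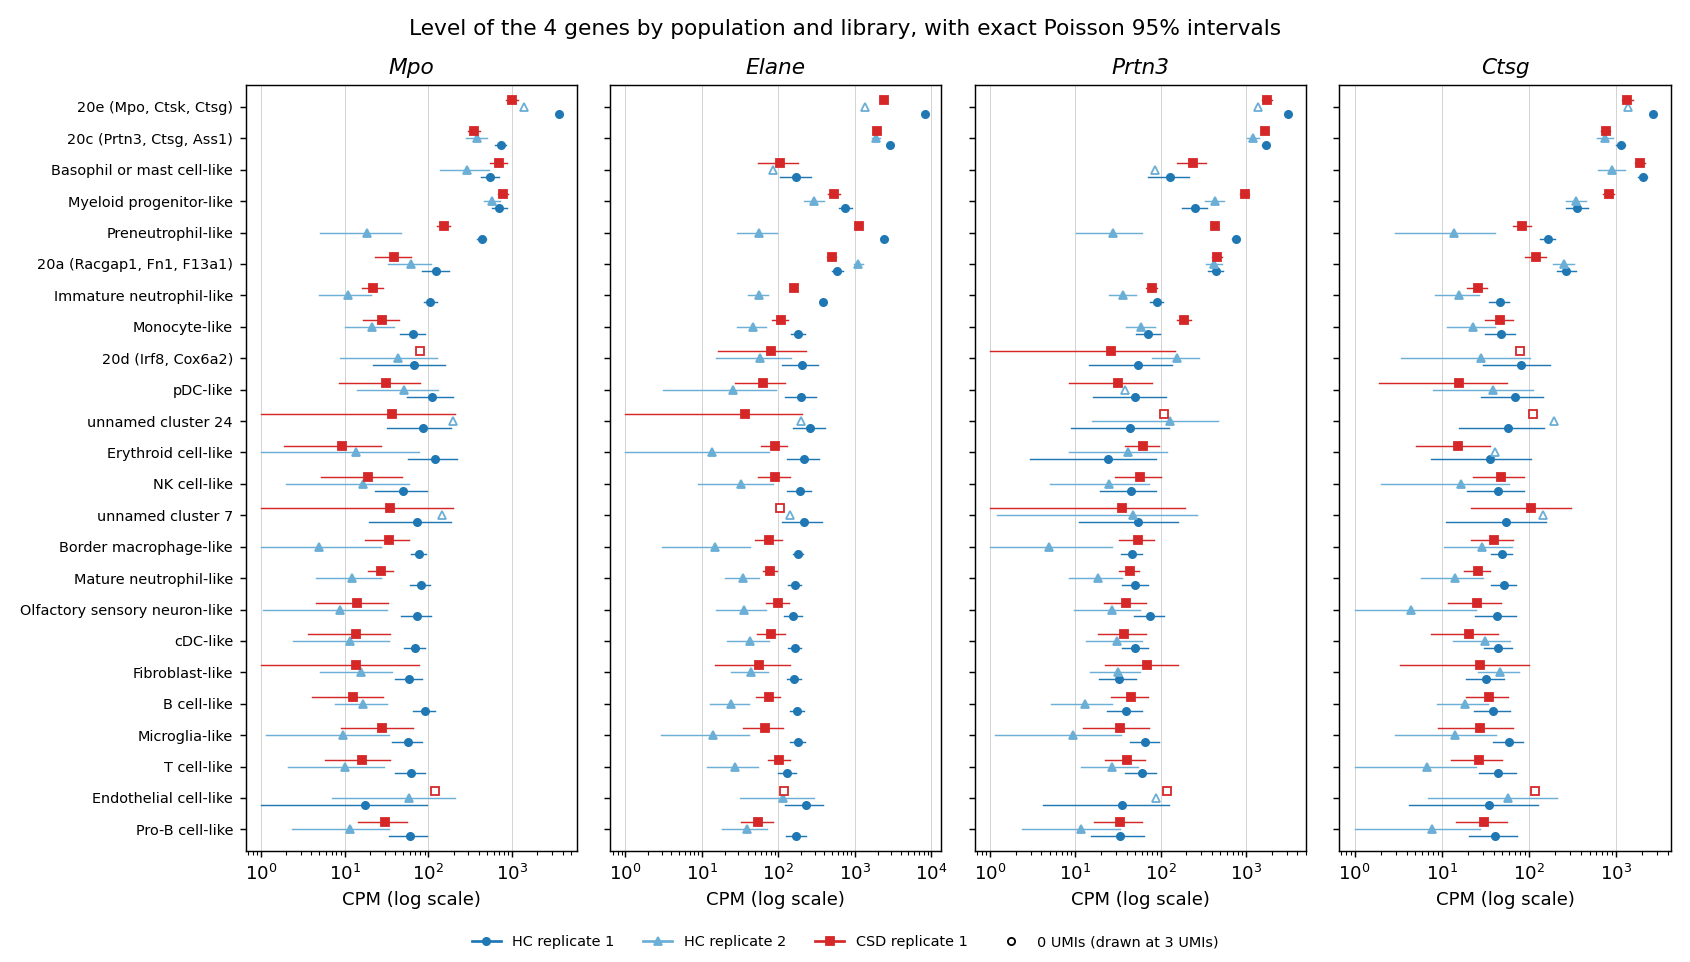
Level of Mpo, Elane, Prtn3 and Ctsg in each of 24 populations. Each point is 1 library (CPM, log axis), and bars are exact 95% Poisson intervals of the counts. The precursor groups and the basophil- or mast cell-like cells stand to the high side, and most other populations lie near the T- and NK-like level of their own library.

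Mpo, the peroxidase, was highest in subcluster 20e, at 3649 and 998 CPM in HC replicate 1 and CSD replicate 1. The 4 cells of HC replicate 2 in 20e had a median of 556.5 UMIs and held no UMI of any member, which allows up to 1377 CPM, so that library says little about 20e. In subcluster 5c Mpo was at 1022 and 872 CPM in the same libraries, and HC replicate 2, with 0 UMIs, allows up to 208 CPM. In CSD replicate 1 a single cell held 78 of 132 Mpo UMIs of 20e, and a single cell 76 of 109 of 5c. Myeloid progenitor-like cells held 705, 578 and 779 CPM (mean 687 ± 102, SD, n = 3). A few cells carried this level, since 2 of 17, 2 of 21 and 7 of 29 cells held 90.9%, 80.0% and 91.4% of the Mpo UMIs, and outside them Mpo was at 76.3, 145 and 107 CPM. Basophil- or mast cell-like cells followed at 550.0, 286 and 694 CPM (510 ± 207, SD, n = 3), and subcluster 20c at 725, 381 and 352 CPM (486 ± 208, SD, n = 3). These neighbours in the order overlapped in range. Subcluster 20a held 125, 62.7 and 39.0 CPM. Apart from 20e and 5c of HC replicate 2, each of these values lay above the T- and NK-like level of its library, and the basophil- or mast cell-like cells stood 9.39 to 40.6 times above it.

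Elane, neutrophil elastase, reached 8271 and 2404 CPM in 20e and was as high in subcluster 5c, at 5832 and 7426 CPM in HC replicate 1 and CSD replicate 1. In CSD replicate 1 a single cell held 82.1% of the Elane UMIs of 20e, and a single cell 52.5% of those of 5c. The 6 cells of HC replicate 2 in 5c had a median of 664 UMIs and no Elane UMI, which allows up to 208 CPM. In 20c it stood at 2937, 1904 and 1946 CPM (2263 ± 585, SD, n = 3), and in 20a at 595, 1115 and 499 CPM (736 ± 331, SD, n = 3). The progenitor-like cells had 754, 296 and 540.5 CPM. In contrast to Mpo, Elane was at 172, 0 and 105 CPM in basophil- or mast cell-like cells, near the 150, 29.0 and 99.1 CPM of T- and NK-like cells. The 0 of HC replicate 2 allows up to 85.8 CPM.

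Prtn3, proteinase 3, was high in 20c in every library, at 1711, 1205 and 1680 CPM (1532 ± 284, SD, n = 3), and the lowest of these exceeded the highest value of the progenitor-like cells, 964 CPM in CSD. It reached 3145 and 1769 CPM in 20e and 1779 and 2337 CPM in 5c. Subcluster 20a gave 441, 425 and 459.6 CPM (442 ± 17.5, SD, n = 3), the smallest spread between libraries among these groups. Monocyte-like cells held 71.7, 58.9 and 188 CPM of Prtn3, against 55.1, 26.6 and 46.1 CPM in T- and NK-like cells. This was 1.30, 2.22 and 4.07 times that background, while Mpo was at 1.13, 1.74 and 1.64 times, Elane at 1.21, 1.60 and 1.08 times and Ctsg at 1.07, 2.40 and 1.36 times.

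Ctsg, cathepsin G, was highest on the mean of the libraries in basophil- or mast cell-like cells, at 2037, 916 and 1888 CPM (1613 ± 609, SD, n = 3). It followed in 20e at 2653 and 1361 CPM and in 20c at 1133, 754 and 766 CPM (884 ± 215, SD, n = 3). In 20e of CSD replicate 1 a single cell held 63.3% of the Ctsg UMIs. The progenitor-like cells held 363, 353 and 825 CPM, all above the 270.5, 256 and 121 CPM of 20a. In 5c, where Elane was near its maximum, Ctsg was at only 357 and 368 CPM in HC replicate 1 and CSD replicate 1, and at 69.4 CPM, 1 UMI, in HC replicate 2.

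**Figure D2:**
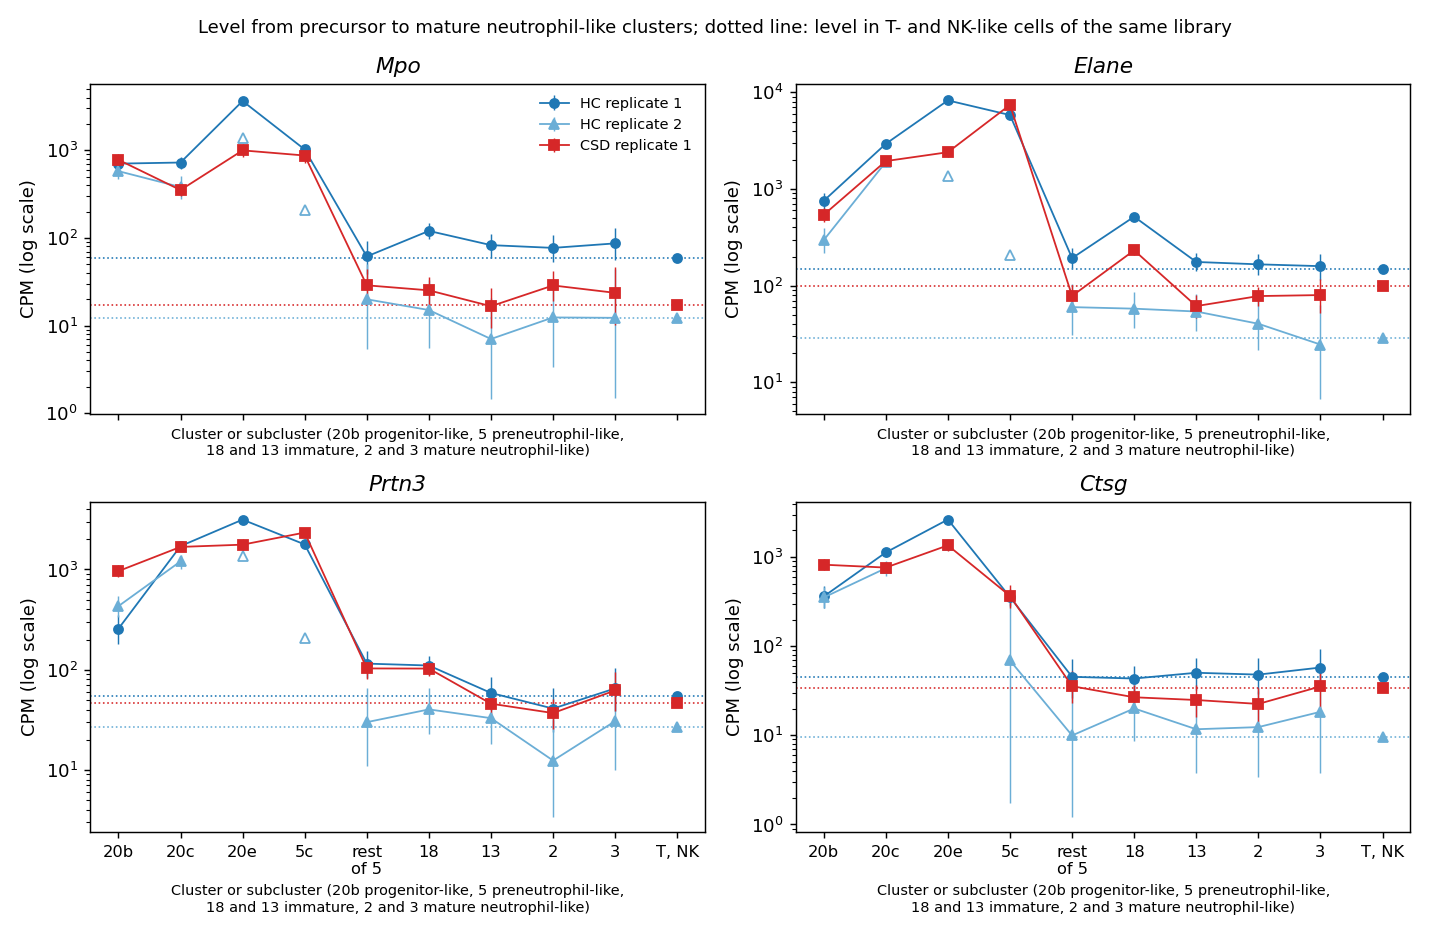
Level of each member (CPM, log axis) in progenitor-like cells, subclusters 20c, 20e and 5c, the rest of cluster 5, and immature and mature neutrophil-like clusters. There is 1 line per library, with exact 95% Poisson intervals. The lines trace no lineage, and 20c scored highest on monocyte markers. Dotted lines give the T- and NK-like level of the same library, open triangles the upper limit where HC replicate 2 had no UMI, and after 5c all 4 genes lie within 3.45 times the dotted line of their library, the widest being Elane in cluster 18.

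Along the neutrophil series the transcripts ended early. Preneutrophils are dividing cells that have begun to make secondary granules, and outside 5c the preneutrophil-like cluster, 142 cells, held Elane at 192, 59.9 and 78.2 CPM and Mpo at 61.5, 19.96 and 28.8 CPM. These levels were 0.79 to 2.07 times those of T- and NK-like cells, although the same cells held Camp and Ngp, granule genes of the next stage, at means of 67428 and 61093 CPM. Prtn3 was at 115, 29.9 and 103 CPM there, 1.13 to 2.23 times the lymphocyte level. Immature neutrophil-like cells fell into clusters 18 and 13, of which cluster 18 had more Camp and Ltf and cluster 13 more Retnlg. Elane was at 517, 57.7 and 232 CPM in cluster 18 and at 176, 53.9 and 61.4 CPM in cluster 13, higher in cluster 18 in HC replicate 1 and CSD replicate 1 and alike within counting error in HC replicate 2. Mature neutrophil-like cells, 1575 in number, held Elane at 163, 35.0 and 78.4 CPM, Mpo at 80.9, 12.4 and 27.4 CPM, Prtn3 at 50.6, 18.5 and 43.4 CPM and Ctsg at 52.0, 14.4 and 25.9 CPM. These were 0.70 to 1.60 times the levels of T- and NK-like cells of the same library.

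Depth was made equal by drawing 500 UMIs from each cell. A UMI of any member was then seen in 17.2%, 2.80% and 8.57% of mature neutrophil-like cells, and in 12.8%, 2.53% and 9.45% of T- and NK-like cells. The exact 95% binomial intervals of both overlapped in each library. Before thinning the shares were 38.8%, 12.1% and 25.4% in the mature cells (medians of 1263 to 1489 UMIs) and 51.1%, 17.7% and 34.6% in the lymphocytes (medians of 2017 to 2515 UMIs). The mature neutrophil share is thus at background. In 20c the share after thinning was 88.9%, 69.2% and 64.7%, and in 5c it was 52.6% and 80.0% in HC replicate 1 and CSD replicate 1. Intervals of counts and shares cover counting error only.

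The transcripts sat in few cells. Cells with at least 20 UMIs of the 4 genes together numbered 127 of 7057 (54, 15 and 58 by library), or 1.80%, and they held 74.1% of all UMIs of the 4 genes. Of these 127 cells, 85 were in cluster 20, with 41 in 20c, 17 in 20a, 16 in 20e, 11 in 20b and 0 in 20d. A further 18 were in 5c, 15 were basophil- or mast cell-like and 9 were in immature cluster 18. The highest sum in a single mature neutrophil-like cell was 4 UMIs. Just below the limit, 13 cells had 15 to 19 UMIs, and just above it 13 had 20 to 24, and none of the 127 was marked as a doublet. In HC replicate 2 the 15 such cells comprised 14 of cluster 20 and 1 basophil- or mast cell-like cell, with 0 in 5c and 0 in cluster 18.

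The 9 cells of immature cluster 18 carried most of its Elane. They were 5 of 159 cells of HC replicate 1 and 4 of 261 of CSD replicate 1, and they held 67.8% and 68.3% of the cluster's Elane UMIs. A single cell held 97 of 404 Elane UMIs in the first library and another held 114 of 303 in the second. Without these 9 cells Elane in cluster 18 was at 180, 57.7 and 76.4 CPM, close to cluster 13. Of the cluster's Ctsg these cells held 11.8% and 8.57%, from 4 of 34 and 3 of 35 UMIs.

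**Figure D3:**
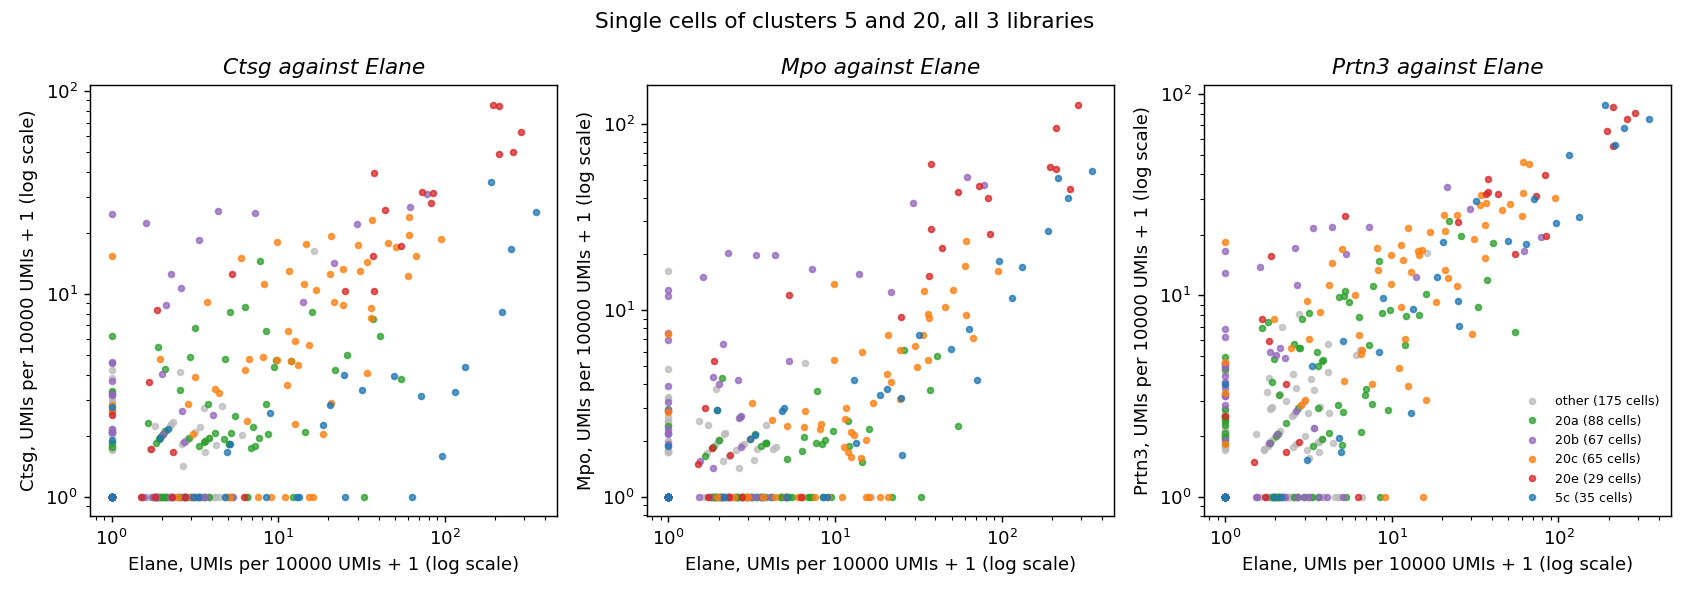
Ctsg, Mpo and Prtn3 against Elane in the 459 cells of clusters 5 and 20 (UMIs per 10000 UMIs of the cell, plus 1, log axes). Each point is 1 cell, coloured by subcluster, and cells of 5c lie below those of 20e and 20c for Ctsg at like Elane, while the 4 transcripts otherwise climb together.

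Single cells within a subcluster differed widely. In 20e the median Elane count was 10 UMIs and the highest was 455, and 15 of 29 cells had at least 10. In 20c, 37 of 65 cells had at least 10 Elane UMIs, and 39 of 65 had all 4 transcripts detected. In 20a only 19 of 88 cells had all 4, and 28 of 88 had any Mpo UMI, while 65 of 88 had Elane. In 5c, Elane had a median of 10 and a maximum of 487 UMIs in 35 cells, and only 4 cells had at least 10 Ctsg UMIs. Subcluster 20e was itself mixed: 3 of its cells, all of HC replicate 1, held at least 10 UMIs of Ctsk, Acp5 and Atp6v0d2, which are osteoclast genes, and these had 6 or fewer member UMIs. The other 13 cells of HC replicate 1 in 20e had Elane at 10503 CPM and Mpo at 4639 CPM.

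Across the 459 cells of clusters 20 and 5 the 4 genes rose and fell together. Pearson's r of log-scaled levels was between 0.70 (Elane with Ctsg) and 0.80 (Elane with Prtn3), and Spearman's rho was between 0.51 and 0.67. Within the libraries, in the same order as above, the lowest r was 0.77, 0.45 and 0.59. These points share library, depth and free RNA, so the values only describe these cells.

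**Figure D4:**
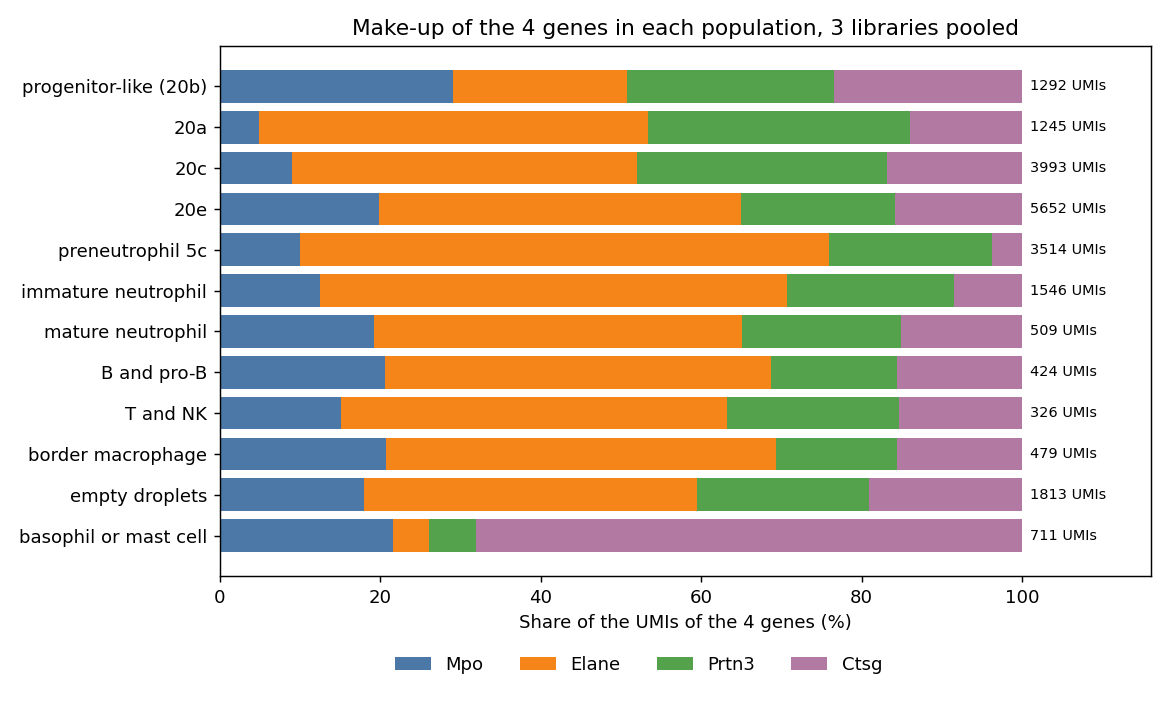
Make-up of the 4 genes' UMIs in each population (percent of their summed UMIs, all libraries pooled). Elane takes 65.9% in 5c, Ctsg 68.1% in basophil- or mast cell-like cells and Mpo 29.0% in progenitor-like cells. Lymphocytes and mature neutrophil-like cells have like shares of Elane and Ctsg.

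The proportions of the 4 transcripts also differed between populations. In T- and NK-like cells, B- and pro-B-like cells and mature neutrophil-like cells, pooled over libraries, Elane was 48.2%, 48.1% and 45.8% of the 4 genes' UMIs, Ctsg 15.3%, 15.6% and 15.1%, and Mpo between 15.03% and 20.5%. These 3 cell types therefore held Elane and Ctsg in like pooled proportions, while Mpo and Prtn3 (21.5%, 15.8% and 19.8%) varied more. In CSD replicate 1 alone Mpo was 8.70%, 12.9% and 15.7% in the same order. Empty droplets had 41.4% Elane and 19.1% Ctsg, pooled. Subcluster 20e, with 19.8% Mpo, 45.2% Elane, 19.2% Prtn3 and 15.9% Ctsg, had a like pooled make-up to these cells. Of its 5652 UMIs, however, 4788 were of HC replicate 1 and 0 of HC replicate 2. In CSD replicate 1 it had 36.8% Elane and 15.3% Mpo, against 50.4% and 8.70% in T- and NK-like cells. A single cell held 261 of 318 Elane and 78 of 132 Mpo UMIs of 20e in that library. The progenitor-like cells, 20c, 20a and 5c had other pooled make-ups. In progenitor-like cells Elane was 36.3%, 17.8% and 17.4% of the UMIs and Mpo 33.9%, 34.9% and 25.1%, so that Mpo per 100 Elane UMIs was 93.4, 196 and 144. In HC replicate 1 a single cell held 90 of 106 Elane UMIs and a single cell 75 of 99 Mpo UMIs, and in HC replicate 2 these were 42 of 46 and 54 of 90, so the ratio rests on few cells. In 20c Mpo per 100 Elane UMIs was between 18.1 and 24.7, and in 20a between 5.63 and 20.98. The range of the progenitor-like cells overlapped neither.

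Ctsg against Elane separated the groups further. Per 100 Elane UMIs, Ctsg was at 48.1, 120 and 153 in progenitor-like cells, at 38.6, 39.6 and 39.4 in 20c and at 6.13 and 4.96 in 5c of HC replicate 1 and CSD replicate 1. Values in 20c varied little between libraries. In 20e of the same libraries as 5c, Ctsg was at 32.1 and 56.6 per 100 Elane UMIs. The CSD ratios rest on few cells. In 20e a single CSD cell held 261 of 318 Elane and 114 of 180 Ctsg UMIs. In 5c a single CSD cell held 487 of 928 Elane and 34 of 46 Ctsg UMIs. Elane and Ctsg are both stored in azurophil granules, and 5c held Elane near its highest level with the lowest proportion of Ctsg in the plot of make-up.

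Basophil- or mast cell-like cells (53 cells, 19, 11 and 23) carried mostly Ctsg and Mpo. Prtn3 was at 129, 0 and 237 CPM, against 55.1, 26.6 and 46.1 CPM in T- and NK-like cells. Ctsg made up 70.5%, 76.2% and 64.6% of the 4 genes' UMIs, and the population held 13.4%, 9.79% and 17.1% of all Ctsg UMIs in 0.73%, 0.65% and 0.83% of the cells. The 25 cells with at least 10 UMIs of Mcpt8, the basophil protease, had Ctsg at 2732, 1363 and 2744 CPM and Mpo at 740, 426 and 883 CPM, and 17 of these cells held at least 10 Ctsg UMIs. The 2 cells with at least 10 UMIs of Cma1, a mast cell chymase, were both of CSD replicate 1 and had no member UMI. Among the remaining 26 cells, Ctsg was at 246, 0 and 357 CPM and no cell held 10 Ctsg UMIs. The split on Mcpt8 and Cma1 was made after the values had been seen, and 10 cells lay at 5 to 19 Mcpt8 UMIs.

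The genes whose levels were most like each member's across the 18 named cell types were taken from 9469 genes by Pearson's r of log2(CPM + 1). For Mpo these were Ms4a3 (0.88), Cpa3 (0.82), Tuba8 (0.82), 4930519L02Rik (0.79) and Adgrg3 (0.76). For Elane they were Pde4d (0.73), Fcnb (0.73), Cebpe (0.72), Ffar2 (0.69) and Prss57 (0.69). For Prtn3 they were Prss57 (0.80), Ms4a3 (0.77), Aprt (0.73), Ffar2 (0.73) and Tuba8 (0.72). For Ctsg they were Ms4a2 (0.90), Cpa3 (0.89), Csrp3 (0.87), Ms4a3 (0.83) and 4930519L02Rik (0.80). The genes nearest to Elane were highest in preneutrophil-like cells, and 5 of 5 nearest to Mpo and to Ctsg were highest in basophil- or mast cell-like cells. Among the members, Mpo and Ctsg were most alike (0.91) and Elane and Ctsg least (0.37). With the unnamed populations included, 24 in all, on CPM pooled over libraries, Ms4a3, a membrane protein gene of granulocyte precursors, came first for all 4 members (0.90, 0.77, 0.80 and 0.85). Over these 24, Mpo with Ctsg was at 0.94 and Elane with Ctsg at 0.75.

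Other azurophil granule genes followed the members only in part. Levels of listed genes, here and in the next 2 paragraphs, are means of the 3 libraries. HC replicate 2 counts equally in them, with only 4 cells in 20e and 6 in 5c (medians of 556.5 and 664 UMIs). Levels in 20e and 5c are therefore uncertain. Prss57, a related serine protease, had means of 80.7 CPM in 20e and 97.8 CPM in 5c against 24.2 CPM in 20c and 7.2 CPM in 20a. Ms4a3 was at 433 CPM in 20e, 565 CPM in 5c and 464 CPM in basophil- or mast cell-like cells, against 12.0 CPM in T- and NK-like cells. Pooled over libraries, 20e held Ms4a3 at 727 CPM and Prss57 at 136 CPM. Lyz2 (lysozyme) and Srgn (the granule proteoglycan serglycin), the most abundant of the list in 20e at 9999 and 563 CPM, were spread more widely, with Lyz2 at 38058 CPM in monocyte-like cells and Srgn at 1552 CPM in mature neutrophil-like cells. Bpi, another primary granule gene, and Epx and Lpo, paralogs of Mpo, had no UMI in 5c, 20c or 20e. Gzmb, the most abundant serine protease paralog of the list in 20e by its mean of 154 CPM, rested on 2 UMIs there.

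Genes that process or restrain the enzymes were arranged in several ways on these means, with the same limit for 20e and 5c. Ctsc, which removes the dipeptide that keeps the 3 proteases inactive, had means of 270.5 CPM in 20c, 288 CPM in 20a and 311 CPM in monocyte-like cells but 46.0 CPM in 20e and 37.0 CPM in 5c. Cst7, an inhibitor of Ctsc, was at 142 CPM in 20e and 17.1 CPM in 20a. The chaperone genes Calr and Hsp90b1, at 547 and 437 CPM in 20e, were at 72.6 and 52.8 CPM in mature neutrophil-like cells. Serpinb1a, which inhibits all 3 proteases, was at 1131 CPM in 5c, 938 CPM in the rest of cluster 5 and 132 CPM in mature neutrophil-like cells. Slpi, which inhibits elastase and cathepsin G, was at 788 CPM in 20e and 4081 CPM in mature cells, where the protease transcripts were at background.

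Transcription factor genes differed between the precursor groups on these means, with the same limit for 20e and 5c. Cebpe, needed for secondary granules, was at 802 CPM in 5c and 1032 CPM in the rest of cluster 5 but at 113 CPM in 20e and 121 CPM in 20c. Irf8, which favours monocytes over neutrophils, was at 634 CPM in 20e and 591 CPM in 20c against 143 CPM in 5c. Klf4, a monocyte factor, was at 127 CPM in 20c, 195 CPM in 20a and 27.6 CPM in 20e. F13a1, a monocyte gene, was at 463 CPM in 20c, 607 CPM in 20a, 131 CPM in 20e and 22.2 CPM in 5c. Myb was at 143 CPM in progenitor-like cells and 29.6 CPM in 20e.

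The effect of social defeat was asked of each population by summing UMIs per library and testing CSD against HC with edgeR's quasi-likelihood test. Only 1 CSD library was made, so the spread was taken from the 2 HC libraries, moderated over all genes tested. A choice of 1 library against 2 allows 3 splits, so that a permutation could not go below 33.3% of splits. In preneutrophil-like cells, where 0.326% of 6741 genes passed an adjusted p of 0.05, no member did. At an unadjusted p under 0.05 edgeR gave 1, Mpo, where 4.7% of all genes had such a p, and DESeq2 gave none. Mpo was at 435, 18.6 and 152 CPM and Elane at 2385, 55.9 and 1154 CPM, with CSD between the HC libraries. The log2 difference (CSD minus HC) of Elane was -0.005 (SE 0.34, adjusted p = 1.00), and it became 4.47 when HC replicate 1 was left out and -0.96 when HC replicate 2 was. The cells of HC replicate 2 had a median of 1521 UMIs here against 10546 and 10227, and the part of this depth gap in the result was not tested.

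**Figure D5:**
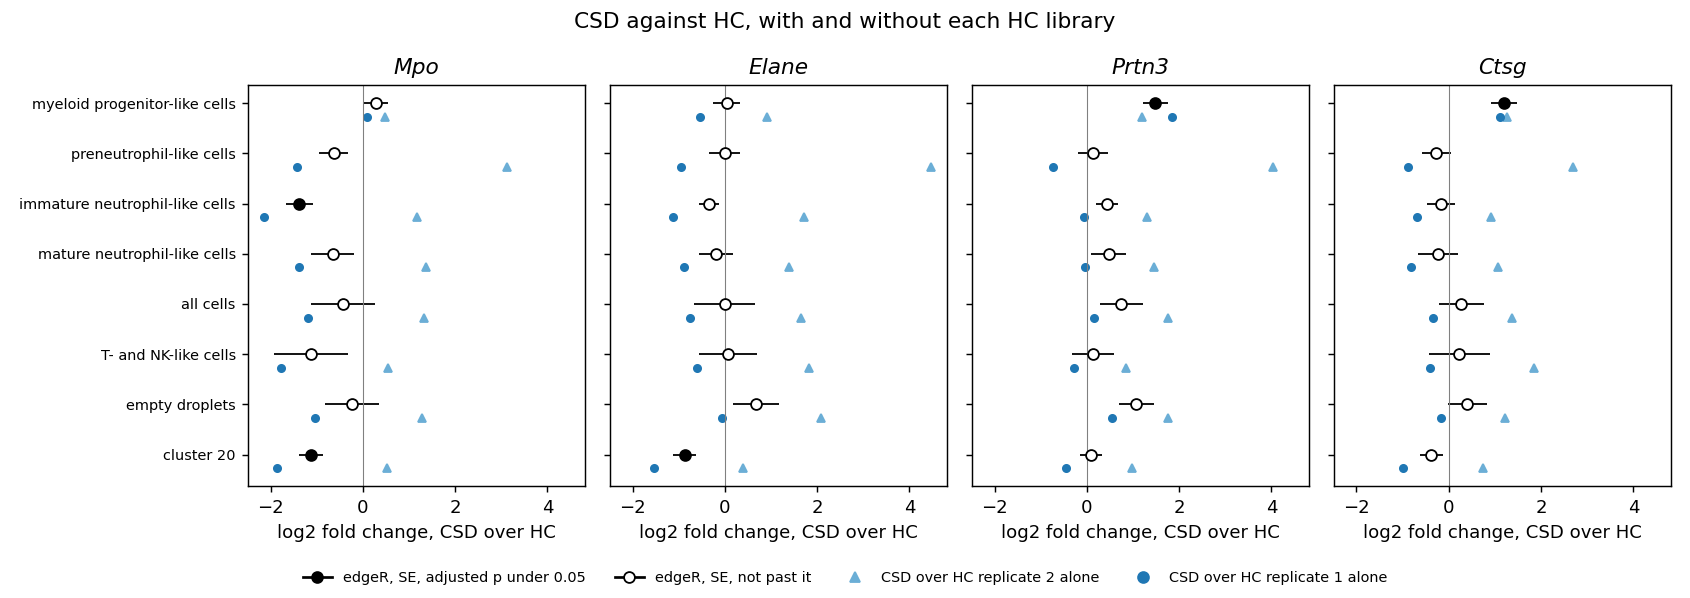
Difference CSD minus HC of each member (log2) in 8 sums over populations or empty droplets. Black circles with bars are edgeR estimates ± SE (worked back from the F statistic of the test), filled where the adjusted p passed 0.05. The blue triangle and blue circle give CSD over HC replicate 2 alone and over HC replicate 1 alone. For Prtn3 and Ctsg in myeloid progenitor-like cells both lie above 1.1, and in preneutrophil-like cells they lie on opposite sides of 0 for all 4 genes.

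In myeloid progenitor-like cells Prtn3 and Ctsg were above both HC libraries. Prtn3 was at 256, 431 and 964 CPM, a log2 difference of 1.48 (SE 0.28, adjusted p = 6.2e-05), and Ctsg at 363, 353 and 825 CPM, a difference of 1.20 (SE 0.28, adjusted p = 0.0072). In this comparison 0.346% of 4914 genes passed, 17 in all. Mpo, at 705, 578 and 779 CPM, and Elane, at 754, 296 and 540.5 CPM, did not pass (adjusted p = 0.99 for both). The 29 CSD cells included 7 with at least 20 member UMIs, against 2 of 17 and 2 of 21 cells, and these held 78.7% of the Prtn3 and 94.4% of the Ctsg UMIs of CSD. DESeq2 gave adjusted p = 1.00 for both genes. At a finer clustering (Leiden resolution 2) the progenitor-like cells gave -0.31 for Prtn3 and -0.23 for Ctsg, adjusted p = 1.00 for both, and -1.44 for Elane (edgeR adjusted p = 3.3e-05), so the direction differed between these choices of cells. Both Prtn3 and Ctsg passed in the other 5 of 7 alternatives with a test.

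In immature neutrophil-like cells Mpo passed the test as lower in CSD (log2 difference -1.38, SE 0.29, adjusted p = 0.00038), where 1.41% of 8567 genes passed. The values were 106, 10.9 and 21.6 CPM, with CSD between the HC libraries, and without HC replicate 1 the difference was 1.17. T- and NK-like cells had 58.6, 12.1 and 17.1 CPM of Mpo, in the same order. The call was lost with DESeq2 (adjusted p = 1.00) and at Leiden resolution 2 (adjusted p = 0.33), and it held in the other 4 of 6 alternatives with a test. Over these 6 the difference was -1.38 to -1.25. Elane (385, 55.8 and 160 CPM), Prtn3 (90.1, 36.4 and 78.5 CPM) and Ctsg (46.2, 15.8 and 26.0 CPM) did not pass, with adjusted p of 0.70, 0.65 and 0.95 in edgeR's test.

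In cluster 20 as a whole, a sum chosen after the clusters had been seen, Mpo and Elane passed as lower in CSD among 0.817% of 9308 genes. Mpo was at 1351, 275 and 375 CPM (log2 difference -1.13, SE 0.26, adjusted p = 0.0031) and Elane at 3325, 933 and 1161 CPM (-0.87, SE 0.24, adjusted p = 0.042). CSD lay between the HC libraries for both, and without HC replicate 1 the differences were 0.52 and 0.38. With DESeq2, or with a robust prior on the spread in edgeR, neither passed (adjusted p = 1.00). Of 6 alternatives with a test, Mpo passed in 4 and Elane in 2, with differences of -1.16 to -1.06 and of -0.91 to -0.81. Prtn3 (1452, 569 and 1072 CPM) and Ctsg (1151, 367 and 585 CPM) did not pass.

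No member passed in mature neutrophil-like cells (1.45% of 7217 genes passed), in T- and NK-like cells (0.0249% of 8030), in empty droplets (0.0373% of 10734) or in all cells (3.23% of 14408) with edgeR, nor with DESeq2. At an unadjusted p under 0.05 edgeR gave 1 member in these 4 sums, Prtn3 in empty droplets, with a log2 difference of 1.07 (SE 0.38). Of all genes, 10.7%, 4.63%, 5.77% and 15.1% had such a p in the 4 sums, in the order given. Over all cells Prtn3 was at 253, 85.4 and 237 CPM (log2 difference 0.75, SE 0.46, adjusted p = 0.52) and Mpo at 242, 44.0 and 89.5 CPM (-0.43, SE 0.70, adjusted p = 0.86). Elane was at 685, 134 and 342 CPM and Ctsg at 197, 62.3 and 131 CPM, again with CSD between the HC libraries. With no filter on low counts, Prtn3 passed over all cells (adjusted p = 0.00083).

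Some genes listed with the members passed, and the shares of all genes that passed were 1.41% in immature cells, 1.45% in mature cells, 3.23% in all cells and 0.817% in cluster 20. Serpinb1a, the protease inhibitor, was higher in CSD in immature (log2 difference 0.64, SE 0.18, adjusted p = 0.025) and mature neutrophil-like cells (0.95, SE 0.23, adjusted p = 0.027), 1 of 4 inhibitors tested in each. Over all cells, 2 of 4 inhibitors (Serpinb1a and Slpi), 3 of 7 serine protease paralogs (Cma1, Mcpt4 and Tpsb2), 1 of 9 transcription factors (Cebpe), 1 of 3 genes of extracellular traps (Padi4) and 0 of 8 azurophil companions were higher, and none was lower. Cma1, Mcpt4 and Tpsb2 are mast cell genes, and the 2 cells with at least 10 Cma1 UMIs were both of CSD replicate 1, with 0 in the HC libraries. In cluster 20, 1 of 8 azurophil companions was lower, Cd63 (log2 difference -0.97, SE 0.26, adjusted p = 0.030). In preneutrophil-like and progenitor-like cells no gene of these lists passed with edgeR, and none reached an unadjusted p under 0.05. The shares of these cells, 2.08%, 2.47% and 2.94% for preneutrophil-like and 12.1%, 13.6% and 19.5% for immature neutrophil-like cells, enter the sums over all cells.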

How the data were processed

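The authors made the libraries with 10x 3' v2 chemistry and, per the submitters' processing notes, used Cell Ranger 2 and mm10. No source used here gives the annotation release. The deposited values are raw UMI counts for 27998 genes and 2211840 barcodes, with no cells called. Cells were barcodes with at least 500 UMIs, 174 to 4548 genes and under 8.3% mitochondrial UMIs. Empty droplets were barcodes of at most 100 UMIs. Cells were grouped in scanpy 1.11.5 (3000 variable genes without the members and their granule companions, 50 components, mutual-nearest-neighbour correction, Leiden resolution 1). Clusters took the type with the best marker score if at least 1 of its markers was among their 10 leading genes. Subclusters needed at least 3. In both, at least 3 markers of the type had to hold 10 UMIs, and no other type could have more markers among the leading genes. Cluster 13 was named immature neutrophil-like with 1 such marker, beside 1 of mature neutrophils. Scrublet marks were kept.

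Counts were summed per library and tested with edgeR 4.0.16 (quasi-likelihood, TMM, two-sided, at least 10 UMIs over the libraries, Benjamini-Hochberg adjustment over all genes tested, threshold 0.05), on the log2 scale. The SE of an edgeR difference was worked back from the test, as the absolute log2 difference over the square root of its F statistic. The alternative was DESeq2 1.42.0. In simulated counts edgeR recovered 94 (all cells) and 92 (preneutrophil-like cells) of 100 genes changed by a log2 fold of 2. It made 10 and 17 false calls. The simulation gave both HC libraries the same mean and all genes the same spread. It therefore cannot vouch for the test where the HC libraries differ as widely as for the members. Each library is a pool of 4 mice, so no p-value covers the spread between mice. With 2 HC libraries, edgeR moderates the spread of each gene towards that of all genes. The p-values therefore do not measure a member's own spread between pools. Mpo in immature cells, at 105 and 10.2 CPM after TMM in the HC libraries, had an SE of 0.29. A count of 0 was taken to allow 3 counts. The members, lists and comparisons were chosen with earlier results of these data known. Named were the 4 members, list genes past the threshold, the 2 most abundant of each list in 20e, the 5 genes most like each member, and leading genes; other genes were chosen after their values were seen. The limits of 20 and 10 UMIs per cell were set by hand.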

Additional observations from a re-analysis of the deposited data

Results flagged for a closer look

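Mpo and Ctsg had CSD levels above both HC libraries in some populations and below both in others, among groups with at least 10 cells and 10 UMIs of the gene in every library. The difference between the populations was not tested. The share of all genes that lay outside both HC libraries in these populations was not counted. With so few libraries a gene without any effect can often lie outside both. These placements are therefore a description and show no effect of defeat. Mpo was above both HC libraries in basophil- or mast cell-like cells (694 CPM against 550.0 and 286 CPM) and in myeloid progenitor-like cells (779 CPM against 705 and 578 CPM). It was below both in subcluster 20a (39.0 CPM against 125 and 62.7 CPM) and in subcluster 20c (352 CPM against 725 and 381 CPM). Ctsg was above both in myeloid progenitor-like cells (825 CPM against 363 and 353 CPM) and below both in subcluster 20a (121 CPM against 270.5 and 256 CPM).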

How the results depend on the processing

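No paired analysis was possible because the HC libraries carry the numbers 1 and 2 and the CSD library only 1, so the groups share 1 number.

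Levels in the highest group and shares of UMIs in named precursors depended on the clustering. On the mean of libraries the highest levels were 1549 (Mpo), 3558 (Elane), 1638 (Prtn3) and 1613 CPM (Ctsg). They became 3583, 7861, 3249 and 2628 CPM when the members took part in the clustering, and Ctsg 934 CPM with no mutual-nearest-neighbour correction. Leaving out a library gave 499 to 2323, 1202 to 5337, 885 to 2457 and 1402 to 1962 CPM. Progenitor-like and preneutrophil-like cells together held 31.4% of Mpo, 22.5% of Elane, 21.5% of Prtn3 and 15.9% of Ctsg UMIs. With the members in the clustering the shares of Mpo, Prtn3 and Ctsg were 7.90%, 11.2% and 3.49%. With no correction they were 10.1%, 12.8% and 4.20%, and at Leiden resolution 2 the 4 shares were 47.8%, 37.9%, 33.8% and 29.7%. Leaving out a library gave 26.8% to 38.8%, 16.8% to 29.7%, 19.1% to 24.2% and 13.2% to 19.6%. A minimum of 1000 UMIs, which left HC replicate 2 no cell of 20e, gave 2323, 5337 and 2457 CPM for Mpo, Elane and Prtn3. A limit of 5% mitochondrial UMIs and subtraction of free RNA moved the levels and shares by less than 1 SD.

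Counts of genes past the threshold moved as follows. With DESeq2 they went from 17 to 1 (progenitor-like), 22 to 1 (preneutrophil-like), 121 to 1 (immature), 105 to 13 (mature), 466 to 227 (all cells), 4 to 0 (empty droplets) and 76 to 4 (cluster 20). The 0 in empty droplets stands beside 79 genes at an unadjusted p under 0.05. With no filter they were 13 (preneutrophil-like), 167 (mature), 1211 (all cells), 47 (T and NK, from 2) and 72 (empty droplets). With genes in over 15% of cells they were 55 (immature), 61 (mature), 2 (all cells) and 0 (T and NK, with 64 at an unadjusted p under 0.05). RLE factors gave 164 (mature) and 4 (T and NK), a robust prior 24 and removal of doublets 47 (both T and NK), and Leiden resolution 2 160 (mature) and 0 (T and NK, with 244 at an unadjusted p under 0.05). Filters change how many genes are tested, and the cause of the other shifts was not tested. Counts with an HC library left out had no test, since 1 library then stood against 1.

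Reversed differences were those of all 4 members in progenitor-like cells at Leiden resolution 2 (Mpo -1.06, Elane -1.44, Prtn3 -0.31, Ctsg -0.23), where other cells carry the name. Elane, near 0 in the comparison of preneutrophil-like cells, was at 0.013 (DESeq2), 0.028 (no filter), 0.043 (doublets removed) and 0.035 (Leiden resolution 2). Over all cells it was at 0.0092 (DESeq2), 0.0054 (RLE), 0.0040 (no filter) and 0.025 (doublets removed). Leaving out an HC library gave -2.15 to 1.17 for Mpo in immature cells, and -1.87 to 0.52 for Mpo and -1.54 to 0.38 for Elane in cluster 20. In preneutrophil-like cells of at least 1000 UMIs Elane was at -0.0098. In cluster 20 Elane was also lost with no filter (adjusted p = 0.13) and with doublets removed (0.069). Fits with the robust prior, at 1000 UMIs and in cluster 20 were chosen after seeing the data.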
